A study of Mus musculus with 18 samples.

Results

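The genes described here build the entry route and the first exit route of the endoplasmic reticulum (ER). They comprise 45 members chosen by name, out of the 51499 loci of the expression table: 23 genes of protein translocation, 11 of the COPII coat, 6 of the COPI coat, and 5 cargo receptors and a SNARE. RNA was sequenced from mouse embryonic fibroblasts in 18 libraries, 3 in each of 6 groups, to ask how the Argonaute protein AGO2 bears on selected mRNAs during ER stress. The groups are labelled Ago2+/+ (wild type) or Ago2-/- (no functional Ago2). Sample titles name the former DCR1 and the latter AGO2, for a reason the labels do not give. Each genotype label comes with DMSO (the solvent), tunicamycin (an inhibitor of protein N-glycosylation) or 500 nM thapsigargin (an inhibitor of the pump that fills the ER with calcium). The cells were a gift of another laboratory, and were not authenticated according to the study, which tested the Ago2-/- cells for absence of the protein by western blot. Whether each genotype is 1 clone is not stated in the sources used here. The tunicamycin dose and the length of treatment are stated in the study's methods and not in the labels.

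The table holds 1 FPKM per group (fragments per kilobase of transcript, scaled to library size), pooled by the authors over the 3 libraries. No value carries a replicate spread, no depth is known, and no test between groups could be run from these values. Differences are therefore given as sizes, on log2(FPKM + 0.1), and a member is called higher or lower when it differs by at least 1.5-fold. The counts of members in each comparison are read against the percent of all loci meeting the same rule, out of the 11929 whose mean over the groups reached 1 FPKM. All 45 members pass that mean, and 44 of them also pass a mean of 10 FPKM, the exception being Srp54a. In every sequence of 3 values below, the order is DMSO, tunicamycin and thapsigargin.

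The labels do not match the profiles, and this bears on every direction given here. Ago2 itself stood at 22.1, 5.75 and 17 FPKM for Ago2+/+ and at 5.61, 15.5 and 20.7 FPKM for Ago2-/-. It was lowest in Ago2+/+ tunicamycin and Ago2-/- DMSO, and above 15 FPKM in both other groups labelled Ago2-/-. The Y-linked gene Ddx3y was listed at 0 in 4 groups, and stood at 23.3 FPKM in the group labelled Ago2+/+ thapsigargin and at 24.7 in Ago2-/- tunicamycin. The X-linked Xist stood at 46.6 FPKM in Ago2+/+ DMSO and 33.5 in Ago2-/- thapsigargin, and at 0.0574 or less in the other 4 groups. Over the 11929 loci the 6 groups formed 3 close pairs that cross the labels. These were Ago2+/+ tunicamycin with Ago2-/- DMSO, Ago2+/+ thapsigargin with Ago2-/- tunicamycin, and Ago2-/- thapsigargin with Ago2+/+ DMSO, with Spearman's rho of 0.985, 0.985 and 0.977 across loci. The other 12 pairs had rho between 0.876 and 0.906. In addition, 4 libraries carry conflicting genotype labels, and the pooled values give no way to leave them out. Genotype, treatment and cell source cannot be told apart in these values, so group names here are labels and no more. The summed level of 10 fibroblast markers lay between 3010 and 3970 FPKM (Thy1 was listed at 0 in every group), led by Vim and S100a4, against 0.205 to 2.01 for 6 epithelial, 0.121 to 0.465 for 4 endothelial and 1.17 to 1.9 for 5 leukocyte markers. Single fibroblast markers differed widely between groups, Col1a1 by 109 times, Pdgfrb by 33.2 times, Pdgfra by 17.9 times, Fn1 by 12.9 times and S100a4 by 6.91 times from lowest to highest, and their part in the members' differences was not tested.

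Secreted and membrane proteins enter the ER while they are being made. The signal recognition particle binds the signal sequence as it leaves the ribosome and docks at its receptor on the ER membrane, the Sec61 channel lets the chain through, the TRAP complex assists, and signal peptidase removes the signal. Folded cargo leaves in vesicles coated by COPII, while COPI coats the vesicles that carry escaped ER residents and receptors back from the Golgi. When unfolded proteins accumulate, the unfolded protein response raises many genes of this machinery, through transcription factors such as XBP1 and ATF6.

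Most members were highest in the group labelled Ago2-/- tunicamycin (26 members) or Ago2+/+ thapsigargin (11), and lowest in Ago2-/- thapsigargin (31). Ago2-/- tunicamycin and Ago2+/+ thapsigargin held the highest 2 values for 35 of the 45 members (77.8%), against 26.0% of all loci. The 10 others were Sec62, Tram1, Srp14, Srp68, Spcs2, Sec16a, Sec23b, Sec24b, Sec24d and Cope. The group labelled Ago2-/- thapsigargin was the lowest for 31 members (68.9%), against 17.8% of all loci, and was the highest for 0. In bulk RNA, a lower level in all cells and a lower share of expressing cells cannot be told apart. The size of the spread lay closer to the background: 33 members (73.3%) had a highest value at least 1.5 times the lowest, against 68.8% of all loci, and 22 members reached 2 times, against 38.8% of all loci.

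**Figure D1:**
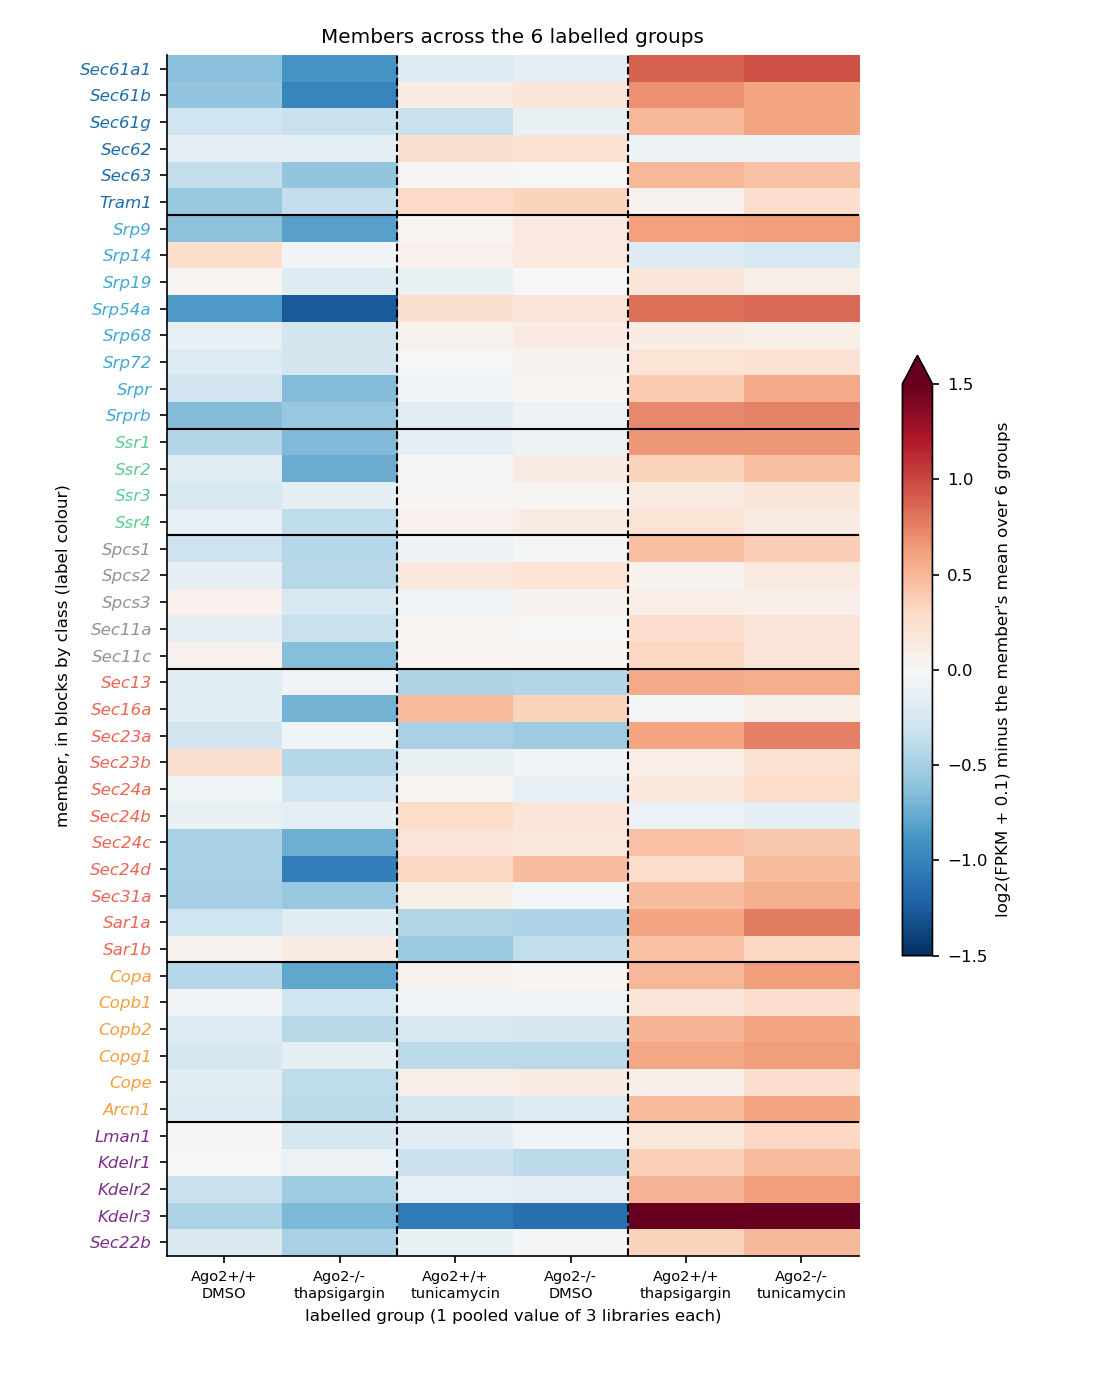
Each row is a member and each column a labelled group, ordered so that the close pairs stand side by side between dashed lines. The colour is log2(FPKM + 0.1) minus the member's mean over the 6 groups. Most rows are reddest in Ago2+/+ thapsigargin and Ago2-/- tunicamycin and bluest in Ago2-/- thapsigargin, Kdelr3 runs past the top of the scale, and Srp14, Sec62, Sec16a and Sec24b go against the main order.

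A stricter reading asked which members stood apart in both groups of a close pair. Both Ago2+/+ thapsigargin and Ago2-/- tunicamycin were at least 1.5-fold above each of the other 4 groups for 12 members (26.7%), against 6.48% of all loci. They were Sec61a1, Sec61g, Srprb and Ssr1 of translocation, Sec13, Sec23a and Sar1a of COPII, Copb2, Copg1 and Arcn1 of COPI, and Kdelr2 and Kdelr3. Both Ago2+/+ DMSO and Ago2-/- thapsigargin were at least 1.5-fold below each of the others for 5 members (11.1%), against 5.09% of loci: Sec61b, Srp9, Srp54a, Sec24c and Sec24d. No member (0 of 45) was at least 1.5-fold lower in both Ago2+/+ tunicamycin and Ago2-/- DMSO than in all others, a pattern that 6.73% of loci showed.

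The summed FPKM of each class followed this order to different degrees. The 6 genes of the Sec61 channel summed to 439.6, 597 and 936 FPKM for Ago2+/+ and to 631, 953 and 391 FPKM for Ago2-/-. The 6 COPI genes summed to 487, 528 and 765 FPKM for Ago2+/+ and to 527, 820.2 and 427 FPKM for Ago2-/-. The 5 signal peptidase genes summed to 318 FPKM in Ago2-/- thapsigargin and 502 FPKM in Ago2+/+ thapsigargin, their lowest and highest sums. FPKM is already divided by transcript length, and the sums are led by the most abundant genes of a class. In 8 members over 5% of the exonic bases lie under exons of the opposite strand, and reads there could belong to either gene: Sec61a1 (8.16%), Sec62 (11.7%), Srp9 (14.1%), Ssr2 (12.8%), Spcs1 (16.3%), Sec23a (8.9%), Copa (9.58%) and Copg1 (8.55%).

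**Figure D2:**
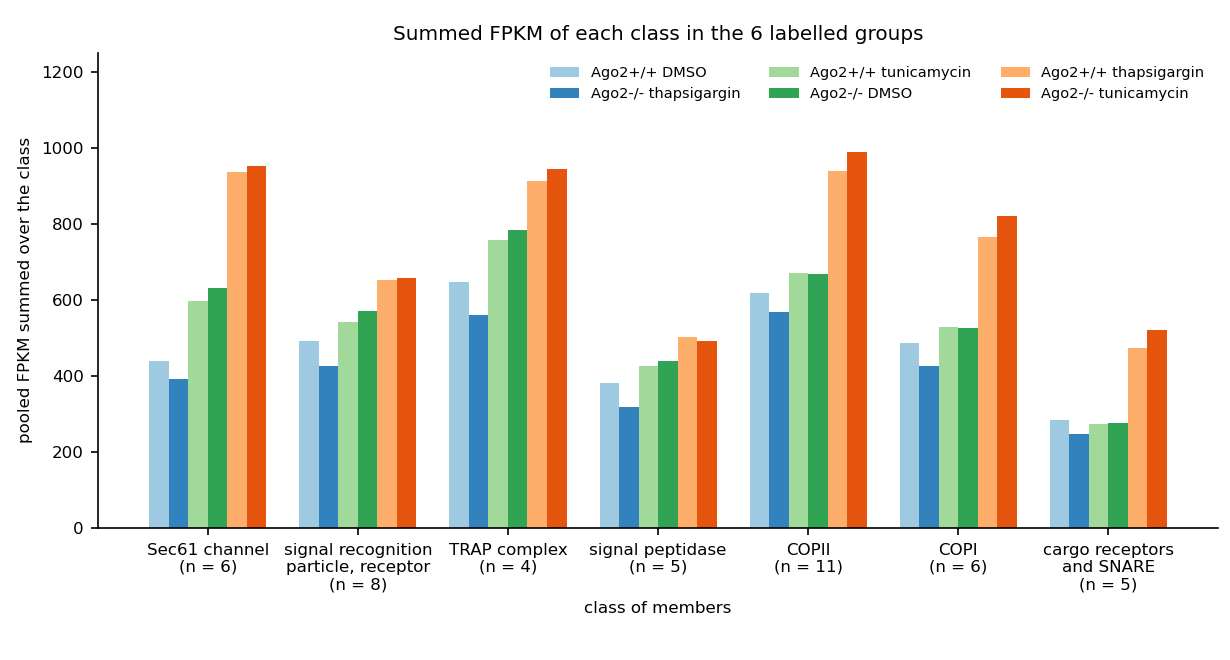
Bars give the pooled FPKM summed over the members of each class (number of genes under each name) in the 6 labelled groups, with close pairs in shades of 1 colour. All 7 classes have their lowest sum in Ago2-/- thapsigargin and their highest 2 sums in Ago2+/+ thapsigargin and Ago2-/- tunicamycin.

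Within the Sec61 channel, Sec61a1 and Sec61b had the widest spread. Sec61a1 (chromosome 6, 88503579 to 88518905, minus strand, GRCm38), which forms the pore, was at 109, 148 and 312 FPKM for Ago2+/+ and at 154, 329 and 91.4 FPKM for Ago2-/-. Its highest value was 3.6 times its lowest. Sec61b, a small subunit beside the pore, was at 114, 185 and 274 FPKM for Ago2+/+ and at 194, 258 and 85.9 FPKM for Ago2-/-. Both genes were lowest in Ago2-/- thapsigargin, next lowest in Ago2+/+ DMSO, and clearly higher in Ago2+/+ thapsigargin and Ago2-/- tunicamycin. Sec61g, the other small subunit, was at 107, 104 and 186 FPKM for Ago2+/+ and at 122, 198 and 104 FPKM for Ago2-/-. It lay between 104 and 122 FPKM in 4 groups and was at least 1.5-fold higher in both others. The subunits of 1 complex therefore did not keep a fixed ratio of mRNA: Sec61a1 over Sec61g was 1.02, 1.42 and 1.68 for Ago2+/+ and 1.27, 1.67 and 0.878 for Ago2-/-.

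The channel's partners were less abundant. Sec63, which brings the chaperone BiP (Hspa5) to the luminal side of the channel, was at 41.6, 53.7 and 74.9 FPKM for Ago2+/+ and at 53.2, 72 and 35.3 FPKM for Ago2-/-, with the same highest 2 and lowest 2 groups as Sec61a1. Tram1, a membrane protein beside the channel that helps some signal sequences insert, was at 34, 61.8 and 52.5 FPKM for Ago2+/+ and at 63.8, 60.1 and 39.2 FPKM for Ago2-/-. It was lowest in Ago2+/+ DMSO and Ago2-/- thapsigargin, but highest in Ago2-/- DMSO and Ago2+/+ tunicamycin. Sec62, the partner of Sec63 for small secretory proteins, was at 34.6, 45.3 and 36.4 FPKM for Ago2+/+ and at 44.5, 36.3 and 34.8 FPKM for Ago2-/-. Its highest value was only 1.31 times its lowest, so that Sec61a1 over Sec62 ran from 2.63 in Ago2-/- thapsigargin to 9.06 in Ago2-/- tunicamycin.

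Of the signal recognition particle, the subunits differed in pattern. Srp54a (chromosome 12, 55080262 to 55115367, plus strand), which encodes the GTPase that binds the signal sequence, was at 3.77, 8.14 and 12.3 FPKM for Ago2+/+ and at 7.86, 12.5 and 2.83 FPKM for Ago2-/-. Its highest value was 4.43 times its lowest, but it was also the least abundant member, and mouse carries near-identical copies of this gene, so its level is uncertain. The table gives the name Srp54a to a further locus on the span of the annotated Srp54b, at 1.51 to 3.03 FPKM, which was not used. Srp9, which together with Srp14 slows translation while the ribosome docks, was at 39.2, 61.3 and 91.8 FPKM for Ago2+/+ and at 66.6, 92.4 and 34 FPKM for Ago2-/-. Its partner Srp14 was at 125, 109 and 91.1 FPKM for Ago2+/+ and at 115, 88.1 and 101 FPKM for Ago2-/-. The proteins work as a heterodimer, but Srp9 had its highest values in Ago2-/- tunicamycin and Ago2+/+ thapsigargin, and Srp14 its lowest in the same groups. Srp19, Srp68 and Srp72, which assemble on the particle's RNA, differed by 1.3, 1.32 and 1.41 times between their highest and lowest group.

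Both receptor subunits followed the main order. Srpr, the subunit that docks the particle, was at 66.4, 78.6 and 106 FPKM for Ago2+/+ and at 82.6, 119.7 and 51.4 FPKM for Ago2-/-. Srprb, which anchors it in the membrane, was at 27.5, 38.6 and 71.3 FPKM for Ago2+/+ and at 40.5, 72.1 and 29 FPKM for Ago2-/-. The Srprb locus in the table also holds Trf and Gm20425, so its level may be shared with them. Both were highest in Ago2-/- tunicamycin and Ago2+/+ thapsigargin, with highest over lowest of 2.33 and 2.62.

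The TRAP complex held the most abundant members. Ssr2, the beta subunit, had the highest mean of all 45, and was at 245, 282 and 351 FPKM for Ago2+/+ and at 302, 380.4 and 167 FPKM for Ago2-/-. Ssr1, the alpha subunit, was at 54.6, 67.3 and 116 FPKM for Ago2+/+ and at 70.4, 117 and 46.9 FPKM for Ago2-/-. Both were lowest in Ago2-/- thapsigargin. Ssr3, the gamma subunit, at 234, 278 and 302 FPKM for Ago2+/+ and at 278, 313 and 251 FPKM for Ago2-/-, spanned only 1.33 times, and Ssr4, the delta subunit, at 113, 129 and 142 FPKM for Ago2+/+ and at 133, 134 and 94.9 FPKM for Ago2-/-, spanned 1.5 times and fell just short of that limit before rounding. Ssr3 over Ssr1 ranged from 2.6 in Ago2+/+ thapsigargin to 5.36 in Ago2-/- thapsigargin.

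Signal peptidase held both narrow and wider spreads. Spcs1, an accessory subunit, was at 112, 131 and 189 FPKM for Ago2+/+ and at 137, 178 and 103 FPKM for Ago2-/-. Spcs2, at 108, 133 and 124 FPKM for Ago2+/+ and at 137, 132 and 89.2 FPKM for Ago2-/-, was lowest in Ago2-/- thapsigargin as well but was highest in Ago2-/- DMSO. Spcs3, at 67.9, 62.4 and 69.2 FPKM for Ago2+/+ and at 67.2, 68.4 and 54.6 FPKM for Ago2-/-, had the smallest spread of all members, 1.27 times. Sec11a and Sec11c encode the catalytic subunits. Sec11a, whose locus also holds Nmb, was at 52, 59.05 and 69 FPKM for Ago2+/+ and at 57.7, 66 and 45.9 FPKM for Ago2-/-. Sec11c was at 42.5, 42 and 50.5 FPKM for Ago2+/+ and at 41.7, 46.7 and 26.1 FPKM for Ago2-/-, with 1 clearly low group, Ago2-/- thapsigargin. Sec11c made up 36.2% of the summed FPKM of the pair there, against 41.4% to 44.9% in the other groups.

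Several COPII genes shared 1 of 2 patterns. Sec13, which builds the outer cage with Sec31a, was at 132, 108 and 218 FPKM for Ago2+/+ and at 109, 215 and 142 FPKM for Ago2-/-. Sar1a, the GTPase that starts coat assembly, was at 83, 75.4 and 154 FPKM for Ago2+/+ and at 74.3, 176 and 91 FPKM for Ago2-/-. Sec23a, which activates that GTPase in the inner coat, was at 23.1, 20.0 and 42.3 FPKM for Ago2+/+ and at 19.3, 47.5 and 26.7 FPKM for Ago2-/-. These 3 genes shared a low level in Ago2+/+ tunicamycin and Ago2-/- DMSO, below Ago2+/+ DMSO and Ago2-/- thapsigargin, and a level at least 1.5-fold above all others in Ago2+/+ thapsigargin and Ago2-/- tunicamycin. Sar1b, the other SAR1 gene, which is needed for large lipoprotein cargo in the gut, was at 39.1, 25.5 and 51.1 FPKM for Ago2+/+ and at 29.1, 46.7 and 40.6 FPKM for Ago2-/-. It had the same low groups, without the 1.5-fold step above all others.

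Sec24c, Sec24d and Sec31a showed the other pattern. Sec24d, an adaptor that selects cargo for the coat, was at 50.6, 87.4 and 84.9 FPKM for Ago2+/+ and at 97.7, 98.2 and 34.8 FPKM for Ago2-/-. Sec24c, a further adaptor of the same family, was at 30.0, 48 and 57.2 FPKM for Ago2+/+ and at 47.4, 55.6 and 25.3 FPKM for Ago2-/-. Sec31a, the rod of the outer cage, was at 79.3, 119 and 154 FPKM for Ago2+/+ and at 110.1, 162 and 75.5 FPKM for Ago2-/-. In these genes Ago2+/+ DMSO and Ago2-/- thapsigargin were the lowest 2 groups, and the other 4 lay above them. Sec16a, the scaffold of ER exit sites, also had its lowest values there, and was at 23.9, 37.2 and 26.4 FPKM for Ago2+/+ and at 33.6, 28.5 and 16.3 FPKM for Ago2-/-. Unlike Sec31a, it was highest in Ago2+/+ tunicamycin and Ago2-/- DMSO.

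The remaining COPII genes, all paralogues of those above, had neither pattern. Sec23b was at 98.2, 77.9 and 89.1 FPKM for Ago2+/+ and at 80.7, 97.4 and 61.6 FPKM for Ago2-/-. It was highest in Ago2+/+ DMSO, and Sec23b over Sec23a was 4.24, 3.89 and 2.11 for Ago2+/+ and 4.17, 2.05 and 2.31 for Ago2-/-. Sec24b, at 40.2, 52.4 and 40.8 FPKM for Ago2+/+ and at 49.3, 39.7 and 39.7 FPKM for Ago2-/-, spanned 1.32 times, and Sec24a, the least abundant COPII member, was at 17.6, 19 and 20.6 FPKM for Ago2+/+ and at 17, 22.4 and 15 FPKM for Ago2-/-. Sec24d made up 30.3% of the summed SEC24 FPKM in Ago2-/- thapsigargin and 36.6% in Ago2+/+ DMSO, against 41.7% to 46.2% in the other groups. Of the summed SAR1 FPKM, Sar1b made up 32.0%, 25.3% and 24.9% for Ago2+/+ and 28.1%, 21.0% and 30.8% for Ago2-/-.

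**Figure D3:**
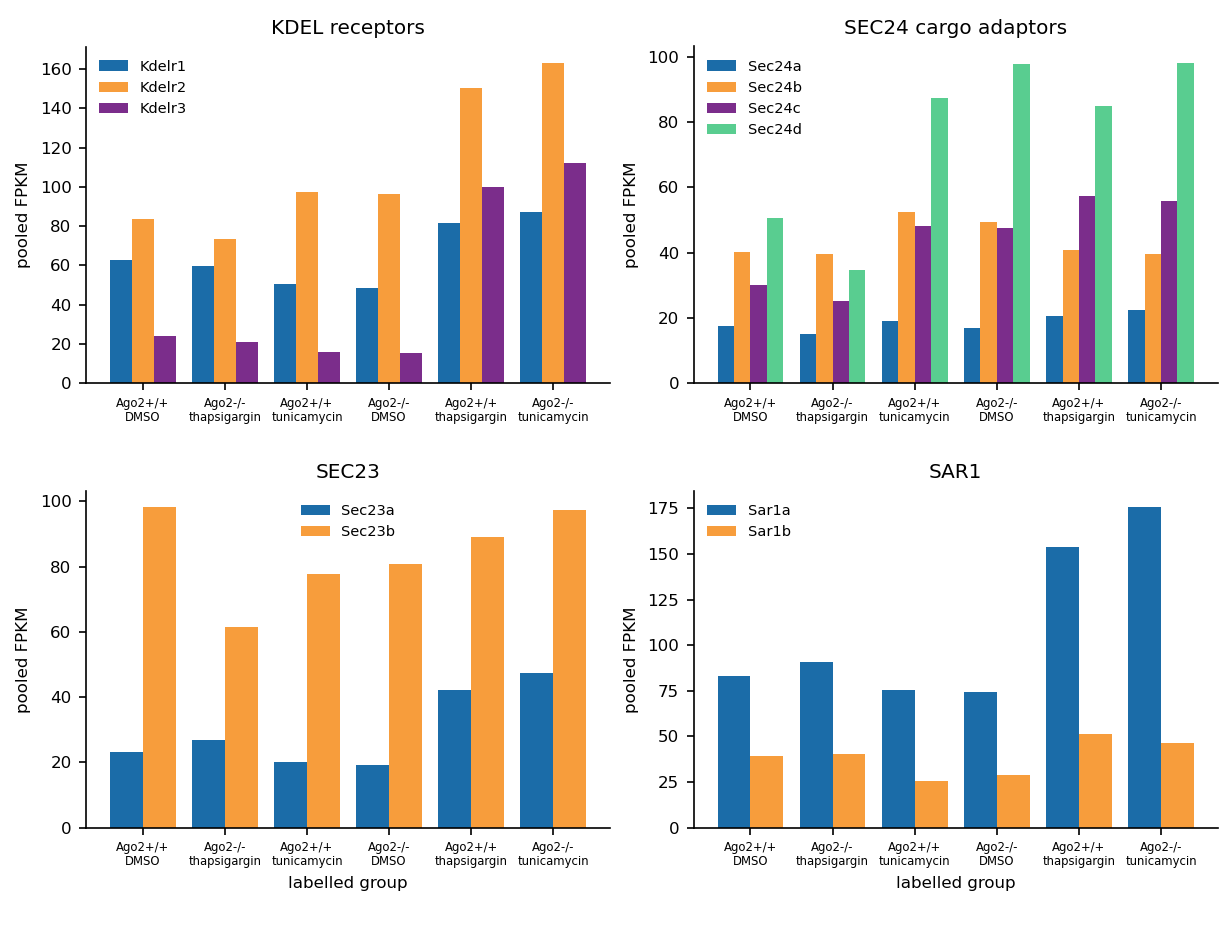
Bars give the pooled FPKM of each paralogue of 4 families in the 6 labelled groups, close pairs side by side, with 1 pooled value per bar and no error. Kdelr3, Sec23a and Sar1a are highest in the 2 groups at the right of each panel, Sec24d is lowest in the 2 at the left, and Kdelr1, Sec23b and Sec24b differ less.

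The COPI genes shared much of their pattern. Copa, the alpha subunit that recognises retrieval signals, was at 96.7, 136 and 185 FPKM for Ago2+/+ and at 133, 202 and 75.8 FPKM for Ago2-/-. Copb2, the beta-prime subunit of the same outer layer, was at 84.7, 82.9 and 139 FPKM for Ago2+/+ and at 81.5, 146 and 73.2 FPKM for Ago2-/-. Copg1, which belongs to the inner layer, was at 74.6, 67.3 and 133 FPKM for Ago2+/+ and at 67.2, 138 and 80.5 FPKM for Ago2-/-. In all 3 the groups Ago2+/+ thapsigargin and Ago2-/- tunicamycin were the highest 2. Arcn1, the delta subunit, was at 85.6, 82.8 and 137 FPKM for Ago2+/+ and at 85.7, 149 and 74.3 FPKM for Ago2-/-, close to Copb2 in every group. Cope, a stabilising subunit, was at 71.5, 85 and 84.1 FPKM for Ago2+/+ and at 86.4, 94.7 and 61.3 FPKM for Ago2-/-, and Copb1, the beta subunit, was at 73.6, 73.5 and 86.4 FPKM for Ago2+/+ and at 73.6, 90.3 and 61.9 FPKM for Ago2-/-. These last subunits spanned 1.55 and 1.46 times, against 2.0 to 2.67 times for the other 4.

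The KDEL receptors, which catch escaped ER chaperones in the Golgi for return by COPI vesicles, held the widest difference of all members. Kdelr3 (chromosome 15, 79516411 to 79527739, plus strand) was at 23.8, 15.9 and 100.2 FPKM for Ago2+/+ and at 15.2, 112 and 20.8 FPKM for Ago2-/-. Its highest value was 7.4 times its lowest, and both high groups stood more than 4 times above every other group in FPKM. Ddx17, an RNA helicase gene, lies on the opposite strand and overlaps 0.283% of the exonic bases of Kdelr3. Ddx17 was at 76.6, 79.2 and 92.2 FPKM for Ago2+/+ and 79.3, 89.3 and 66.1 FPKM for Ago2-/-, a spread of 1.4 times. Kdelr1 was at 63, 50.8 and 81.4 FPKM for Ago2+/+ and at 48.4, 87.2 and 59.5 FPKM for Ago2-/-. Kdelr2, the most abundant of the 3, was at 83.8, 97.3 and 150.5 FPKM for Ago2+/+ and at 96.6, 163 and 73.5 FPKM for Ago2-/-. Kdelr3 made up 14.0%, 9.67% and 30.2% of the summed receptor FPKM for Ago2+/+, and 9.47%, 30.9% and 13.5% for Ago2-/-. The share of Kdelr3 was thus highest in the same 2 groups where the summed receptor level was highest, at 332 and 363 FPKM against 154 to 171 FPKM elsewhere.

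Lman1, the lectin that carries glycoproteins from ER to Golgi, was at 65, 57.5 and 72.2 FPKM for Ago2+/+ and at 61.4, 79.6 and 53.6 FPKM for Ago2-/-. Sec22b, a SNARE that fuses vesicles between ER and Golgi, was at 48.1, 52 and 70.6 FPKM for Ago2+/+ and at 54.9, 78.2 and 39.7 FPKM for Ago2-/-. Both were highest in Ago2-/- tunicamycin and lowest in Ago2-/- thapsigargin, although Lman1 spanned only 1.48 times.

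Promoters were read because members that differ together can carry a shared motif of the unfolded protein response. The motif UPRE (TGACGTGG, both strands) was searched in the 250 bases before and 50 bases after the start of each gene in RefSeq (GRCm38.p6). Of the 45 members, 35 had a promoter entry, and 5 of them (14.3%) held the motif: Copb1, Copb2, Kdelr3, Sec23a and Sec24d. Of all 27025 genes with an entry, 0.714% did. The shares of genes given for these motifs have no filter on expression, unlike the shares of loci elsewhere, whereas every member was expressed. The ERSE motif (CCAAT and CCACG, 9 bases apart) was found in 0 of the 35 and in 0.137% of all genes. ERSE-II (ATTGG and CCACG, 1 base apart) was found in 0 of the 35 and in 0.0444% of genes. The letters CCACG are part of all 3 motifs. A match is a run of letters and not a site, and the absence of one says only that these letters are not in this window. The windows below run from 80 bases before to 20 bases after the start, 5′ to 3′ on the gene's strand. Capitals mark the UPRE letters, which appear as CCACGTCA where the motif lies on the other strand. They are shown for the 5 members with the motif, and for Kdelr1 as a paralogue of Kdelr3 without it.
Kdelr3, chr15:79516328-79516427, plus strand: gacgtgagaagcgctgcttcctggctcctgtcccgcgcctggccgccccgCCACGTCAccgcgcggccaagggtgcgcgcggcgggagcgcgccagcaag
Sec24d, chr3:123267416-123267515, plus strand: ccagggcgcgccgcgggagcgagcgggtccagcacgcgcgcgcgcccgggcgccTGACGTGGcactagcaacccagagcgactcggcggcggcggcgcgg
Copb2, chr9:98563651-98563750, plus strand: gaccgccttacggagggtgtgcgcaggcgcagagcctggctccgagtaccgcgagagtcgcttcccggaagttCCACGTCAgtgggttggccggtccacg
Sec23a, chr12:59011998-59012097, minus strand: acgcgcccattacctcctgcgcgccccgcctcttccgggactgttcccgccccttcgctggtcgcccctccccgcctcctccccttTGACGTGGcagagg
Copb1, chr7:114254661-114254760, minus strand: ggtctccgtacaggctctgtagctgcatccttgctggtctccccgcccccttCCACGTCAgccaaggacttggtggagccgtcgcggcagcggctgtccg
Kdelr1, chr7:45872760-45872859, plus strand: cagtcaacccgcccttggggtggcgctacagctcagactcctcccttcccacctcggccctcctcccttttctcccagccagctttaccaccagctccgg
The motif ended 23 bases before the start in Kdelr3, 19 before it in Sec24d and 21 before it in Copb1, lay across the start in Copb2, and began at base 7 counted from it in Sec23a. The members with the motif differed widely in spread, from 1.46 times in Copb1 to 7.4 times in Kdelr3, and Sec24d alone among these 5 did not have its highest 2 values in Ago2+/+ thapsigargin and Ago2-/- tunicamycin.

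The labelled comparisons ask how the machinery differs under each stressor and between genotypes. They share groups: both stressors are set against the same DMSO group within a genotype label, so their ratios are not independent. Tunicamycin against DMSO in Ago2+/+ gave 8 members at least 1.5-fold higher and 2 lower, where 17.2% of all loci were higher and 16.2% lower. Out of 45 members, the higher count lay near the background and the lower count below it. The higher ones were Sec61b, Tram1, Srp9, Srp54a, Sec16a, Sec24c, Sec24d and Sec31a, with log2 ratios between 0.59 for Sec31a and 1.09 for Srp54a. The lower ones were Sar1b (log2 ratio -0.61) and Kdelr3 (-0.59). The median log2 ratio was 0.24 for translocation, 0.11 for COPII and -0.02 for COPI, against 0.01 for all loci.

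Thapsigargin against DMSO in Ago2+/+ gave 23 members higher and 0 lower, where 16.7% of loci were higher and 15.2% lower. By class these were 11 of 23 translocation, 6 of 11 COPII, 4 of 6 COPI and 2 of 5 receptor genes. The largest log2 ratios were those of Kdelr3 (2.07), Srp54a (1.68), Sec61a1 (1.51), Srprb (1.37) and Sec61b (1.27). Counting any amount, 43 of 45 members (95.6%) were higher, against 50.7% of loci, the exceptions being Srp14 (-0.46) and Sec23b (-0.14). Medians were 0.52 for translocation, 0.72 for COPII and 0.70 for COPI, against 0.01 for all loci.

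Tunicamycin against DMSO in Ago2-/- gave 16 members higher and 0 lower, where 21.4% of loci were higher and 19.8% lower. They included 4 of 6 COPI genes, all 3 KDEL receptors, and Sec13, Sec23a, Sar1a and Sar1b of COPII, but only 5 of 23 translocation genes. Kdelr3 had a log2 ratio of 2.88, Sec23a of 1.29, Sar1a of 1.24 and Sec61a1 of 1.09. The medians were 0.19 for translocation, 0.40 for COPII and 0.70 for COPI, with all loci at 0.0.

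Thapsigargin against DMSO in Ago2-/- ran the other way: 0 members were higher and 15 lower, where 16.7% of loci were higher and 19.1% lower. The lower ones were 11 translocation genes, Sec16a, Sec24c and Sec24d of COPII, and Copa. Sec24d had a log2 ratio of -1.49, Srp54a of -1.44, Sec61b of -1.17, Sec16a of -1.04 and Srp9 of -0.97. All 23 translocation genes were lower by some amount, as were 38 of the 45 members (84.4%), against 51.3% of loci. The 7 members that were not were Sec13, Sec23a, Sar1a, Sar1b, Copg1, Kdelr1 and Kdelr3, with log2 ratios between 0.26 and 0.48. Medians were -0.49 for translocation, -0.31 for COPII and -0.23 for COPI, against -0.02 for all loci.

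Between the labelled genotypes, the direction differed between tunicamycin and thapsigargin. Under DMSO, 6 members were higher in Ago2-/- and 1 lower, where 17.2% of loci were higher and 16.7% lower. Out of 45 members, neither count exceeded the background. The higher ones were Sec61b, Tram1, Srp9, Srp54a, Sec24c and Sec24d, and the lower one was Kdelr3. Under tunicamycin, 18 members were higher in Ago2-/- and 0 lower, where 20.7% of loci were higher and 19.4% lower. Kdelr3 led with a log2 ratio of 2.82, followed by Sec23a (1.24), Sar1a (1.22) and Sec61a1 (1.16). Under thapsigargin, 0 members were higher and 27 lower, where 14.9% of loci were higher and 17.7% lower. Kdelr3 (-2.26), Srp54a (-2.08), Sec61a1 (-1.77), Sec61b (-1.67) and Srp9 (-1.43) had the lowest ratios. By any amount, 44 of 45 members (97.8%) were lower, against 52.2% of loci, and Srp14 was the exception at 0.15. For DMSO, tunicamycin and thapsigargin in turn, the translocation median was 0.30, 0.23 and -0.84, and the COPI median was 0.0, 0.70 and -0.80.

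**Figure D4:**
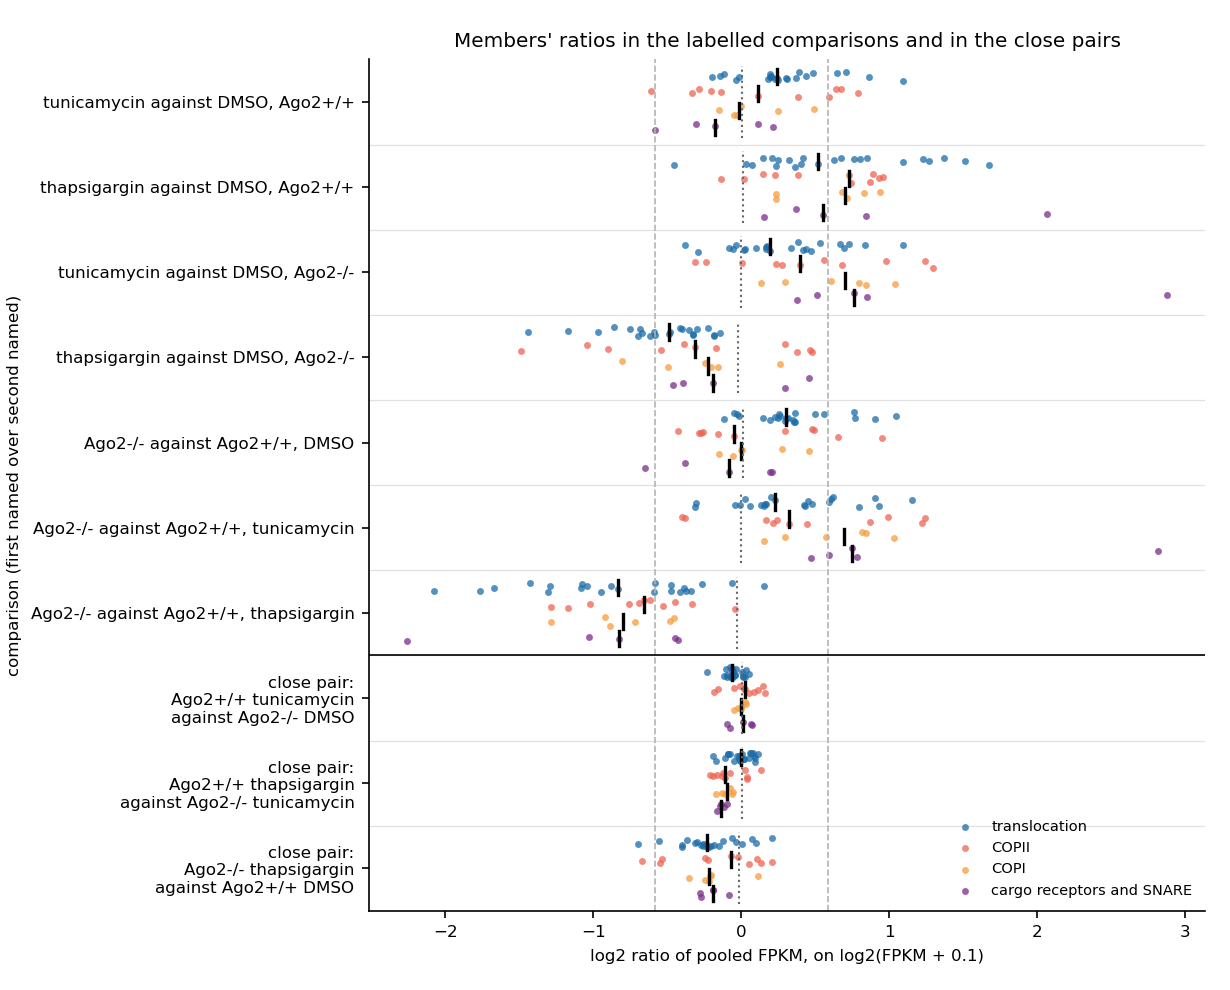
Points are the members' log2 ratios of pooled FPKM in the 7 labelled comparisons and the 3 close pairs, coloured by class, with a black tick at the class median. Dotted lines mark the median of all loci and dashed lines 1.5-fold. Members pass the dashed lines on both sides only for tunicamycin against DMSO in Ago2+/+ and between genotypes under DMSO. In the other labelled comparisons they pass on 1 side, and in the close pairs they lie almost wholly between the lines.

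The close pairs, whose groups differ in both labels, differed least. Ago2+/+ tunicamycin against Ago2-/- DMSO gave 0 members higher and 0 lower, where 1.4% of loci were higher and 2.0% lower. Ago2+/+ thapsigargin against Ago2-/- tunicamycin likewise gave 0 and 0, where 1.88% of loci were higher and 2.51% lower. Ago2-/- thapsigargin against Ago2+/+ DMSO gave 0 higher and 2 lower, where 4.63% of loci were higher and 4.67% lower. The lower ones were Sec11c (log2 ratio -0.70) and Sec23b (-0.67). This last pair showed a small common shift: 36 of 45 members were lower in Ago2-/- thapsigargin by any amount, against 53.2% of loci, and the median of all members was -0.22, against -0.02 for all loci. Each of the other 12 pairs of groups had 31.9% to 41.2% of all loci at least 1.5-fold apart. The members ranged more widely, from 7 for Ago2-/- DMSO against Ago2+/+ DMSO (33.9% of loci) to 29 for Ago2-/- tunicamycin against Ago2-/- thapsigargin (33.8% of loci).

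Further genes of the pathway were counted in the same way. Of 86 further genes listed by name under translocation, coats, cargo receptors and SNAREs, 79 had a mean of at least 1 FPKM. The place of each in the pathway, such as that of Snd1 under translocation, was not checked. The locus of Sec31b also holds Ndufb8 and Gm20538, and those of Emc1, Ubl4a and Tmed7 also hold another gene, so their levels may be shared. In Ago2+/+ thapsigargin against DMSO, 19 of the 79 were higher and 1 lower, where 16.7% of all loci were higher and 15.2% lower. In Ago2-/- thapsigargin against DMSO 4 were higher and 16 lower, where 16.7% of loci were higher and 19.1% lower, so the lower count lay near the background. The median of the 20 other translocation and insertion genes was 0.29 in the former and 0.08 in the latter comparison, against 0.52 and -0.49 for the translocation members. Of those 20 genes, 10 were lower by any amount in Ago2-/- thapsigargin than in Ago2-/- DMSO, near the 51.3% of all loci that were. Whether these genes differ from the members in this was not tested. Between genotypes under thapsigargin, 2 of the 79 were higher and 32 lower, where 14.9% of loci were higher and 17.7% lower. The main order was not particular to the members. Ago2+/+ thapsigargin and Ago2-/- tunicamycin held the highest 2 values for many further genes (26.0% of loci). These were 10 of 20 translocation, 7 of 14 COPII, 11 of 18 COPI and 16 of 27 receptor and SNARE genes. In the same order, 6, 7, 10 and 15 were lowest in Ago2-/- thapsigargin (17.8% of loci).

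Among these further genes, some spread widely. Copz2, a minor coatomer subunit, was at 12.6, 10.3 and 34.7 FPKM for Ago2+/+ and at 9.91, 43.4 and 14.3 FPKM for Ago2-/-. Tmed3, a p24 cargo adaptor of COPII and COPI vesicles, was at 18.8, 24.2 and 59.1 FPKM for Ago2+/+ and at 25.3, 66.2 and 15.8 FPKM for Ago2-/-. Arfgap3, which ends the cycle of the GTPase ARF1 on COPI vesicles, was at 17.2, 18.5 and 36.8 FPKM for Ago2+/+ and at 17.4, 42.2 and 10.8 FPKM for Ago2-/-. All 3 were highest in Ago2-/- tunicamycin and Ago2+/+ thapsigargin. Sec16b, a relative of Sec16a, was at 0.0109, 2 and 5.14 FPKM for Ago2+/+ and at 1.96, 6.82 and 0.0277 FPKM for Ago2-/-. Its level was near 0 in Ago2+/+ DMSO and Ago2-/- thapsigargin, the 2 groups where Sec16a was lowest as well. Mcfd2, the partner of Lman1 in carrying clotting factors, was at 55, 109.9 and 112 FPKM for Ago2+/+ and at 117, 116 and 47.9 FPKM for Ago2-/-, a wider spread than that of Lman1.

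By any amount, most established ER stress reporters were higher than in DMSO in 3 of 4 labelled stressor comparisons and lower in the fourth. Of 16 reporters, 13 were higher with tunicamycin in Ago2+/+ (median log2 ratio 0.30), 13 with thapsigargin in Ago2+/+ (0.49) and 13 with tunicamycin in Ago2-/- (0.30). With thapsigargin in Ago2-/-, 14 were lower (-0.40). By any amount, 50.7% of loci were higher with thapsigargin in Ago2+/+ and 51.3% lower with it in Ago2-/-. For tunicamycin the share of loci by any amount was not counted. At 1.5-fold, only 3, 5 and 2 of the 16 were higher in those 3 comparisons, where 17.2%, 16.7% and 21.4% of loci were. The counts for tunicamycin thus lay near or below the background. In the fourth, 7 were lower at 1.5-fold, where 19.1% of loci were. Hspa5, the chaperone BiP, was at 4808, 6746 and 5367 FPKM for Ago2+/+ and at 7682, 5155 and 3677 FPKM for Ago2-/-. It was highest in the group labelled Ago2-/- DMSO, whose label names the solvent only. Creld2, a luminal target of ATF6, was at 211, 394 and 430.0 FPKM for Ago2+/+ and at 321, 467 and 102 FPKM for Ago2-/-. Dnajb9, a target of XBP1, was at 9.86, 28.2 and 31.4 FPKM for Ago2+/+ and at 29, 35.7 and 9.05 FPKM for Ago2-/-. Dnajc3, a luminal co-chaperone, was at 45.6, 71.1 and 109.5 FPKM for Ago2+/+ and at 67.2, 118 and 21.5 FPKM for Ago2-/-. Of these reporters, 12 (not Hspa5) had their highest 2 values in Ago2+/+ thapsigargin and Ago2-/- tunicamycin, against 26.0% of loci. The same held for 35 of the 45 members. Of the reporters, 10 were lowest in Ago2-/- thapsigargin, against 17.8% of loci. The part of ER stress in the members' differences was not tested.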

How the data were processed

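RNA of mouse embryonic fibroblasts was sequenced in 18 libraries. According to the methods and the submitters' processing notes, the authors checked reads with FastQC 0.11.7, aligned them with HISAT2 2.1.0 to GRCm38 with Ensembl release 91, assembled transcripts with StringTie 1.3.4d and quantified genes with Cuffdiff 2.2.1. For library scaling and strandedness, the sources used here give nothing. The deposited FPKM is 1 pooled estimate by the authors per group of 3 libraries, so no SD, depth or test is available. The table has 772485 rows, 1 for each of 51499 loci and 15 pairs of groups. Its columns of the authors' fold changes, test statistics, p-values, q-values and status were not used. Libraries titled AGO2 were read as Ago2-/- and those titled DCR1 as Ago2+/+, for a reason the labels do not give, and the 4 with conflicting genotype labels were kept by title.

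Log2 ratios were computed on log2(FPKM + 0.1) with Python 3.11.15, numpy 2.4.6 and pandas 2.3.3, ranks with scipy 1.17.1, and figures with matplotlib 3.10.9. Every member is accounted for, with all 6 values where its highest is at least 1.5 times its lowest, and for the most and least abundant of each class. Ssr3, Ssr4, Spcs3, Sec24b and Lman1 were given in full beside their partners, chosen after their values were seen. Other genes were named where at least 2-fold apart, apart from Ddx17, named for its position. Coordinates are those of GENCODE M21. Promoters came from RefSeq, where 10 members had no entry. Of the members, 8 share over 5% of their exonic bases with exons of the opposite strand (at most 16.3%, Spcs1), which cannot be resolved without strand. The members, gene lists and comparisons were chosen with earlier results of these data known, and the close-pair patterns, paralogue shares, counts by any amount and the shares of loci past 2-fold were added after the values were seen.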

Additional observations from a re-analysis of the deposited data

Results flagged for a closer look

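In 13 cases a member was at least 1.5-fold apart under the same stressor label in both genotype labels, but in opposite directions. With 1 pooled value per group these differences were not tested. The values are the log2 ratio to DMSO in Ago2-/- minus that in Ago2+/+. Under thapsigargin 11 members were higher in Ago2+/+ and lower in Ago2-/-. The difference was -3.12 for Srp54a, -2.44 for Sec61b, -2.27 for Sec61a1, -2.23 for Sec24d, -2.19 for Srp9, -1.83 for Sec24c, -1.75 for Copa, -1.68 for Ssr1, -1.44 for Sec63, -1.36 for Srpr and -1.32 for Tram1. Under tunicamycin 2 members were lower in Ago2+/+ and higher in Ago2-/-, with differences of 3.46 for Kdelr3 and 1.29 for Sar1b. Opposite directions were common in the table: 12.6% of all loci showed them under thapsigargin and 18.6% under tunicamycin. The groups labelled Ago2-/- DMSO and Ago2+/+ tunicamycin form a close pair, as do Ago2-/- thapsigargin and Ago2+/+ DMSO. A comparison within 1 genotype label spans different close pairs. Genotype, stressor and the source of the cells cannot be told apart.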

How the results depend on the processing

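With 1 pooled value per group, no library could be left out, no spread could be given, and the depth is unknown. No paired analysis was possible because the replicate numbers in the titles do not appear in the pooled values. The 21 counts and 30 class medians were recomputed under 7 alternatives: a pseudocount of 1 or 0.01 FPKM, centring on the median of all loci, a call at 2-fold, leaving out loci of several gene names, a mean of at least 10 FPKM, and no filter. None turned from higher to lower or back, and the medians do not depend on the call fold. Members with a highest value past the call limit above the lowest numbered 33, 31 to 33 under the alternatives that keep 1.5-fold, and 22 at 2-fold (38.8% of all loci). At 2-fold the members called higher numbered 1 (tunicamycin, Ago2+/+), 7 (thapsigargin, Ago2+/+), 5 (tunicamycin, Ago2-/-), 1 (genotype, DMSO) and 5 (genotype, tunicamycin), in place of 8, 23, 16, 6 and 18, where 9.61%, 9.27%, 11.6%, 9.66% and 11.6% of loci were. Those called lower at 2-fold numbered 0 (tunicamycin, Ago2+/+), 4 (thapsigargin, Ago2-/-), 0 (genotype, DMSO), 15 (genotype, thapsigargin) and 0 (Ago2-/- thapsigargin against Ago2+/+ DMSO), in place of 2, 15, 1, 27 and 2, where 8.29%, 9.81%, 8.37%, 9.97% and 1.68% of loci were. Out of 45 members, the 2-fold counts higher for tunicamycin in Ago2-/- and between genotypes under tunicamycin no longer exceeded the share of loci. The count lower for thapsigargin in Ago2-/- no longer did so either. Those higher for thapsigargin in Ago2+/+ and lower between genotypes under thapsigargin still did. With a pseudocount of 1 FPKM, 1 member in place of 2 was called lower under tunicamycin in Ago2+/+. With a mean of at least 10 FPKM, which drops Srp54a, the translocation median between genotypes under thapsigargin was -0.71 in place of -0.84. That filter also lowers the share of all loci 1.5-fold apart, for example to 12.7% higher for thapsigargin in Ago2+/+ and 14.1% lower between genotypes under thapsigargin, and that with a highest over lowest of at least 1.5 to 59.1%. Of the single-gene ratios, those of Srp54a moved by over 0.1 in 5 comparisons with a pseudocount of 1 FPKM.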

Other observations

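Genes next to the members in the secretory pathway and a cytosolic complex were measured in the same groups. All 12 genes of the oligosaccharyltransferase, the enzyme that attaches N-linked glycans beside the Sec61 channel, were lower by some amount in Ago2-/- thapsigargin than in Ago2+/+ DMSO, as were 53.2% of all loci. Of these 12, 9 were lowest in Ago2-/- thapsigargin (17.8% of all loci), 9 had their highest 2 values in Ago2+/+ thapsigargin and Ago2-/- tunicamycin (26.0% of loci), and 7 had a highest value at least 1.5 times the lowest (68.8% of loci). Stt3a, a catalytic subunit, was at 145, 173 and 272 FPKM for Ago2+/+ and 179, 306 and 124 FPKM for Ago2-/-. Of 31 proteasome genes, which encode the cytosolic complex, 8 had a highest value at least 1.5 times the lowest, 5 had their highest 2 values in those same groups and 2 were lowest in Ago2-/- thapsigargin. In the 7 labelled comparisons their median log2 ratio lay between -0.23 (tunicamycin against DMSO, Ago2-/-) and 0.06 (genotype, DMSO).

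Collagen genes, whose products are bulky cargo of COPII vesicles, differed widely. Col1a1 was at 112, 6.77 and 521 FPKM for Ago2+/+ and 5.97, 651 and 87.1 FPKM for Ago2-/-. Col1a2 was at 86.2, 26.8 and 409.7 FPKM for Ago2+/+ and 23.7, 577 and 101 FPKM for Ago2-/-. Of 9 collagen genes with a mean of at least 1 FPKM, 6 stood at least 1.5-fold above every other group in both Ago2+/+ thapsigargin and Ago2-/- tunicamycin, and 4 were at least 1.5-fold below every other group in both Ago2+/+ tunicamycin and Ago2-/- DMSO, patterns that 6.48% and 6.73% of all loci showed. Col4a1 and Col4a2 went the other way, with 98.4 and 59.5 FPKM in Ago2+/+ DMSO as their highest values. Col1a1 had its highest 2 values in Ago2+/+ thapsigargin and Ago2-/- tunicamycin and its lowest 2 in Ago2+/+ tunicamycin and Ago2-/- DMSO. Of the 45 members, 7 (15.6%) had these highest and lowest groups, against 11.1% of all loci: Sec13, Sec23a, Sar1a, Sar1b, Copg1, Kdelr1 and Kdelr3. The same 7 (15.6%) were the only members with these lowest 2 groups, whichever the highest, against 26.4% of all loci. By that tally the lowest groups of Col1a1 were less common among members than among loci. A further 19 (42.2%), against 8.06% of loci, had the same highest groups but their lowest 2 values in Ago2+/+ DMSO and Ago2-/- thapsigargin. Whichever the highest groups, 26 members (57.8%) had their lowest 2 values in Ago2+/+ DMSO and Ago2-/- thapsigargin, against 19.6% of loci. All these tallies were chosen after the values were seen.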
